A study of Rattus norvegicus with 6 samples.

Results

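The genes described here build, anchor and regulate the actin cytoskeleton in RBL-2H3 cells, a rat basophilic leukaemia line that is widely used as a mast cell model. They are 43 named genes in 3 groups: 3 genes of control by serum response factor (SRF), 14 focal adhesion genes and 26 actin filament genes. The list was chosen by name, with the differences between the treated and control libraries of these same data already known. The deposited table holds 41 of the 43 among its 18286 genes, and Mkl2 and Evl were not analysed here. The study compared 3 control libraries with 3 libraries of cells given dihydrocoumarin (DHC), a small lactone that occurs in sweet clover, and asked what DHC does to mast cell activation through immunoglobulin E (IgE). The labels give 1 protocol for all 6 samples, in which cells were loaded with 50 ng/ml anti-DNP IgE for 12 h, washed, and given the antigen DNP-HSA at 100 ng/ml for 4 h. The treatment label of the controls reads none, so it is not clear from the labels whether the controls also received IgE and antigen, and they give no dose or time for DHC. The 6 libraries come from 1 cell line, and the labels do not state separate cultures; p-values below then measure the spread between libraries, which may be technical.

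Actin monomers join into filaments, and the Arp2/3 complex, formins and Ena/VASP proteins start or lengthen them while capping proteins and cofilin stop or sever them. At focal adhesions, talin and kindlin bind integrins, vinculin and zyxin strengthen the link to actin, and paxillin and the kinase FAK carry signals. Monomeric actin holds the coactivators MRTF-A (gene Mkl1) and MRTF-B (Mkl2) out of the nucleus, and when actin polymerises they enter it and activate SRF, which binds the CArG box in the control regions of many actin cytoskeleton genes. In mast cells the cortical actin layer is remodelled when the IgE receptor is crosslinked, and it takes part in spreading, ruffling and granule release.

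Each library held 29084976 to 34170922 reads assigned to genes, so a floor of 3 reads lay at 0.0878 to 0.103 RPM. Levels are given as RPKM, the reads of a gene scaled to its exon length in kilobases and to the library's total, which allows levels to be compared between genes. Differences are DHC minus control on the log2(RPKM + 1) scale, which makes a change in a low gene look smaller than it is. A fold is the ratio of the 2 mean RPKM values. A gene was called higher or lower at a Benjamini-Hochberg adjusted p below 0.05 in a limma fit over the 10667 genes averaging 1 RPKM or more. The labels name the tissue as peripheral blood and the cell type as blood corpuscle. All 7 mast cell and basophil markers were above 1 RPKM, among them Fcer1a at 106.7 RPKM in controls and 109.8 RPKM with DHC. Their summed level was 974 to 999 RPKM in the control libraries and 690.1 to 715.9 RPKM with DHC, and most of that gap was the lineage transcription factor gene Gata2, which fell from 344.6 to 69.9 RPKM (adjusted p = 5.07e-07). The receptor tyrosine kinase gene Kit fell from 114.7 to 64.5 RPKM (adjusted p = 0.000108), and Hdc, encoding the enzyme that makes histamine, from 47.3 to 38.2 RPKM (adjusted p = 0.0183). Ms4a2, encoding the beta chain of the IgE receptor, rose from 320.9 to 368.5 RPKM (adjusted p = 0.0166), and the other 3 markers, Fcer1a, Fcer1g and Cpa3, were not called. Of 17 markers of fibroblasts and smooth muscle, epithelium, macrophages and lymphocytes with a row, 5 exceeded 1 RPKM, the highest being Cd3e, which rose from 34.6 to 41.8 RPKM (adjusted p = 0.0209), and Col3a1, at 23.6 and 21.9 RPKM. The smooth muscle myosin gene Myh11 rose from 1.02 to 1.89 RPKM (adjusted p = 0.0168), while the smooth muscle actin gene Acta2 stayed at or below 0.128 RPKM in both group means. The part of these shifts in the results below was not tested. In bulk RNA, fewer cells of one type and less RNA per cell cannot be told apart.

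Of the 43 genes, 38 passed the filter. The other 3 with a row, the alpha-actinin gene Actn1, the Ena/VASP gene Enah and the smooth muscle light chain gene Myl9, had at most 18, 4 and 6 reads in any library. With DHC, 3 of the 38 were called higher (Srf, Pxn and Cfl1) and 14 lower, led by Fhl2, Zyx, Vcl, Vasp and Mkl1. Among all genes tested, 34.5% were called, 18.4% higher and 16.1% lower. The values of the 2 groups did not overlap for 23 of the 38 genes, against 49.7% of all genes tested. Because the list was chosen with this contrast in view, these counts describe the genes and nothing is read from them. The median difference over the 38 genes was -0.07, against 0.05 over all genes tested. With trimmed-mean scaling these medians were -0.14 and -0.00, the calls among the 38 were 2 higher and 16 lower, and those among all genes were 1285 higher and 2114 lower in place of 1968 and 1717. Differences ranged from -2.05 to 0.44 among the 17 called genes and from -0.17 to 0.21 among the 21 others.

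**Figure D1:**
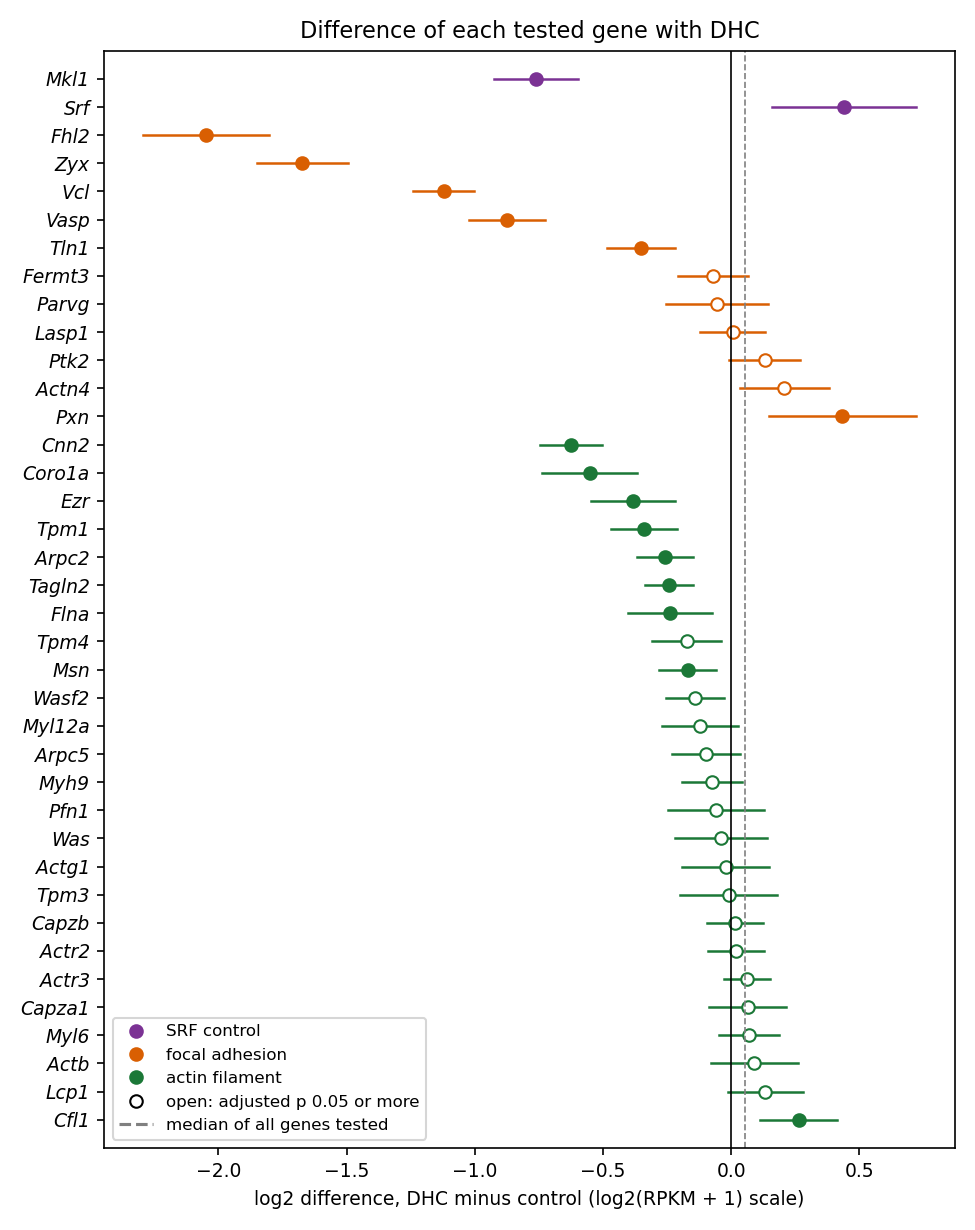
Difference of each of the 38 tested genes (horizontal axis, log2 difference of DHC minus control on the log2(RPKM + 1) scale), with its 95% confidence interval, which is not adjusted for the number of genes. Filled points passed the adjusted threshold and open points did not; the dashed line is the median of all genes tested. The focal adhesion genes Fhl2, Zyx, Vcl and Vasp and the coactivator gene Mkl1 lie farthest to the left, and most actin filament genes lie near 0.

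In the SRF control group the factor and its coactivator differed in opposite directions. Srf, which encodes the DNA-binding factor, lies on chromosome 9 at 16737642 to 16747225 on the plus strand of Rnor_6.0. Its level was 2.69, 3.32 and 3.68 RPKM in control libraries 1 to 3, and 4.40, 5.40 and 4.39 RPKM with DHC. All DHC libraries were above all controls, and the mean rose from 3.23 ± 0.502 to 4.73 ± 0.577 RPKM (SD, n = 3 libraries each), a difference of 0.44 ± 0.12 (SE; limma adjusted p = 0.0267). The call rests on few reads, 337 to 516 per control library and 526 to 693 with DHC. It was lost without control library 1 (0.0651), control library 2 (0.0597) or DHC library 2 (0.0922), and without the filter on low values (0.0709). Mkl1, on chromosome 7 at 122234012 to 122403667 on the minus strand, encodes MRTF-A. It measured 30.4, 34.0 and 34.7 RPKM in the controls and 19.8, 17.8 and 19.7 RPKM with DHC, so the groups were far apart for their spread. The mean fell from 33.1 ± 2.30 to 19.1 ± 1.15 RPKM, a difference of -0.76 ± 0.07 (limma adjusted p = 0.000231). Srf transcripts per length were therefore 0.0973 ± 0.00881 of those of Mkl1 in the controls and 0.250 ± 0.0469 of them with DHC.

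The start-site windows of the member genes were read for the CArG box, the sequence that SRF binds, because Srf is itself a gene under SRF control. The windows come from RefSeq on GRCr8, reach from 250 bases before to 50 bases after each start, and cover 37 of the 43 genes in 44 windows. Ptk2, Lasp1, Actn4, Actb, Lcp1 and Myl9 had no window and were not searched. A CArG box on either strand was found in 5 of the 44 windows (11.4%), those of Srf, Fhl2, Actg1 and Cnn2, and in 548 of all 33469 windows (1.64%). The genes were chosen with the contrast known, so the 2 shares are given side by side without a test. The 5 windows follow 5′ to 3′ on the gene's strand, with the CArG boxes in capitals.
Srf, chr9:21923826-21924125, plus strand: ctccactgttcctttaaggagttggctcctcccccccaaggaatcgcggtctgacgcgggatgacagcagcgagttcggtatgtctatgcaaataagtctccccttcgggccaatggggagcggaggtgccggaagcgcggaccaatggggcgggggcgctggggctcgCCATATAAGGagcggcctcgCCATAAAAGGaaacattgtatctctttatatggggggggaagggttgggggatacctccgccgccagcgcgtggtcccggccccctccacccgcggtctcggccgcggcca
Fhl2, first window, chr9:52954491-52954790, minus strand: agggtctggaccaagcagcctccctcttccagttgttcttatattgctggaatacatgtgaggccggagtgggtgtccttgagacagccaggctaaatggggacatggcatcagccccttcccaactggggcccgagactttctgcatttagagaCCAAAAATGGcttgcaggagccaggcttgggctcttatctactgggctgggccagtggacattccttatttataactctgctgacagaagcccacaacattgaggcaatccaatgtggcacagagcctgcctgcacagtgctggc
Fhl2, second window, chr9:52923277-52923576, minus strand: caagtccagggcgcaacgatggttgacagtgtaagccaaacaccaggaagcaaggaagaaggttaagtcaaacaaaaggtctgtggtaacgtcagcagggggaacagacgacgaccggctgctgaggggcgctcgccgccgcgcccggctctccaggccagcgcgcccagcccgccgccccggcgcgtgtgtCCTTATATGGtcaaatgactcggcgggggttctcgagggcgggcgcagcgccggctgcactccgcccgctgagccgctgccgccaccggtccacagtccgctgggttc
Actg1, chr10:106120902-106121201, minus strand: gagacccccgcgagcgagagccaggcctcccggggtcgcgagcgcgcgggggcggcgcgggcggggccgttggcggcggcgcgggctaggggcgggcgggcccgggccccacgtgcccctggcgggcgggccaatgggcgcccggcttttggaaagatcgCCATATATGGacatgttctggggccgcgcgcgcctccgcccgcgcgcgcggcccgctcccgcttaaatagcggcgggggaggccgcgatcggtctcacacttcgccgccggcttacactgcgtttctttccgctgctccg
Cnn2, chr7:10370263-10370562, minus strand: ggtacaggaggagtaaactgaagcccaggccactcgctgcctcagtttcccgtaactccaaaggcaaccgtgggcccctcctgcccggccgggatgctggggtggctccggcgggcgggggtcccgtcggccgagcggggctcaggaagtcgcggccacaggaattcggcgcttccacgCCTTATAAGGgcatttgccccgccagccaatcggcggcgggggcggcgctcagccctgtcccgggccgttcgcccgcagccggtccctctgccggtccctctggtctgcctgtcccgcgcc
In Srf the 2 boxes begin 81 and 61 bases before the start site, in the Fhl2 windows 95 and 58 bases before it, in Actg1 90 and in Cnn2 71. The 4 genes with a box did not share a direction: Fhl2 and Cnn2 fell with DHC, Srf rose, and Actg1 was not called. Of the 2 other motifs searched on both strands, GGAATG, the core of the site bound by TEAD factors, was in 10 of the 44 windows (22.7%) and in 14.2% of all windows. Of its 10 genes, Zyx, Vcl, Fhl2, Arpc2, Flna, Tagln2 and Tpm1 fell, Pfn1 and Capza1 were not called, and Evl was not analysed here. Of all tested members 14 of 38 were lower, against 16.1% of all genes tested. Since the list was chosen with the contrast known, nothing is read from these directions. TGANTCA, the AP-1 site, was in 1 window, that of Myh9 (2.27%), and in 7.33% of all windows. A match is a description of letters, and a window without one says nothing about binding elsewhere.

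Among the focal adhesion genes, 5 of the 11 tested fell (Fhl2, Zyx, Vcl, Vasp and Tln1) and 1 rose (Pxn). Among all genes tested, 16.1% were lower and 18.4% higher, and the members were chosen with the contrast known. Together the focal adhesion genes took 0.220%, 0.237% and 0.234% of all assigned reads in the controls and 0.153%, 0.154% and 0.156% with DHC. Their share was lower in every DHC library than in every control, and narrow among the DHC libraries. This sum is not a fall of the whole group. The genes with the most reads in every control, Zyx, Vcl, Tln1 and Vasp, were each called lower. Of the 11 tested, 5 were not called and 1 rose.

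Zyx, on chromosome 4 at 71740532 to 71749386 on the plus strand, encodes zyxin, a LIM protein that gathers at adhesions and stress fibres under tension and recruits VASP. It was at 154, 185 and 184 RPKM in the controls and at 51.4, 54.9 and 55.0 RPKM with DHC. The DHC libraries lay close together and far below all 3 controls. Its mean fell 3.24-fold, from 174.2 ± 17.6 to 53.8 ± 2.08 RPKM (difference -1.67 ± 0.08; limma adjusted p = 1.2e-05). Its exons share 145 bases with Epha1 on the opposite strand, a gene at 0.960 and 0.559 RPKM, and the counting strand is not given in the sources used here. Vcl, on chromosome 15 at 3455211 to 3544702 on the minus strand, encodes vinculin, which couples talin to actin. It measured 75.9, 73.4 and 73.2 RPKM in the controls and 35.4, 33.1 and 32.2 RPKM with DHC. The libraries within each group differed by a few RPKM, and the mean fell 2.21-fold, from 74.2 ± 1.51 to 33.6 ± 1.66 RPKM (difference -1.12 ± 0.05; limma adjusted p = 1.2e-05). The ratio of Zyx to Vcl per length went from 2.35 ± 0.282 to 1.61 ± 0.137, with no overlap between the groups.

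Fhl2, on chromosome 9 at 49920854 to 49950093 on the minus strand, encodes a LIM-only protein that binds integrins and also enters the nucleus, where it can bind SRF. Its levels were 17.3, 21.4 and 18.8 RPKM in the controls and 4.32, 3.34 and 3.94 RPKM with DHC. No other tested member differed by as much on the log2 scale. The mean fell 4.95-fold, from 19.1 ± 2.06 to 3.87 ± 0.493 RPKM (difference -2.05 ± 0.11; limma adjusted p = 1.73e-05). Vasp, on chromosome 1 at 80170619 to 80185882 on the minus strand, encodes an Ena/VASP protein, which lengthens filaments at their growing ends. It was at 168, 190.7 and 175 RPKM in the controls and 103, 92.7 and 94.0 RPKM with DHC. Its mean fell 1.84-fold, from 178.0 ± 11.6 to 96.6 ± 5.70 RPKM (difference -0.87 ± 0.06; limma adjusted p = 7.26e-05). Vasp made up 99.98% of the summed level of Vasp and Enah in controls and 99.96% with DHC, since Enah had at most 4 reads. The Ena/VASP gene Evl was not analysed here, so these shares say nothing about it. Relative to Zyx, Vasp went from 1.03 ± 0.0703 to 1.80 ± 0.179 times the level of Zyx.

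Tln1, which encodes talin, the integrin activator, fell from 45.0 ± 1.91 to 35.1 ± 1.73 RPKM (difference -0.35 ± 0.06; limma adjusted p = 0.00296). The scaffold gene Pxn, encoding paxillin, on chromosome 12 at 46797954 to 46845080 on the minus strand, had the lowest level of the members tested. It measured 1.82, 2.33 and 1.93 RPKM in the controls and 2.81, 3.65 and 2.83 RPKM with DHC. The groups did not overlap, and the mean rose from 2.03 ± 0.271 to 3.10 ± 0.479 RPKM (difference 0.43 ± 0.12; limma adjusted p = 0.0295). The call was lost without control library 1 (0.0789), control library 3 (0.0771) or DHC library 2 (0.0991), and without the filter on low values (0.0707). The other 5 tested adhesion genes were not called. Among them Ptk2, encoding FAK, was at 24.5 ± 0.633 RPKM in controls and 26.9 ± 1.65 RPKM with DHC (adjusted p = 0.129, and 0.0490 without DHC library 1). Actn4, an alpha-actinin gene, was at 59.9 ± 5.82 and 69.2 ± 3.14 RPKM (adjusted p = 0.0666, and 0.0315 without control library 3). The blood cell kindlin gene Fermt3 (37.0 and 35.2 RPKM), the parvin gene Parvg (14.3 and 13.7 RPKM) and the LIM and SH3 gene Lasp1 (57.4 and 57.7 RPKM) lay close together in both groups. Exons of Fermt3 share 670 of 2455 bases with Trpt1 on the opposite strand.

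**Figure D2:**
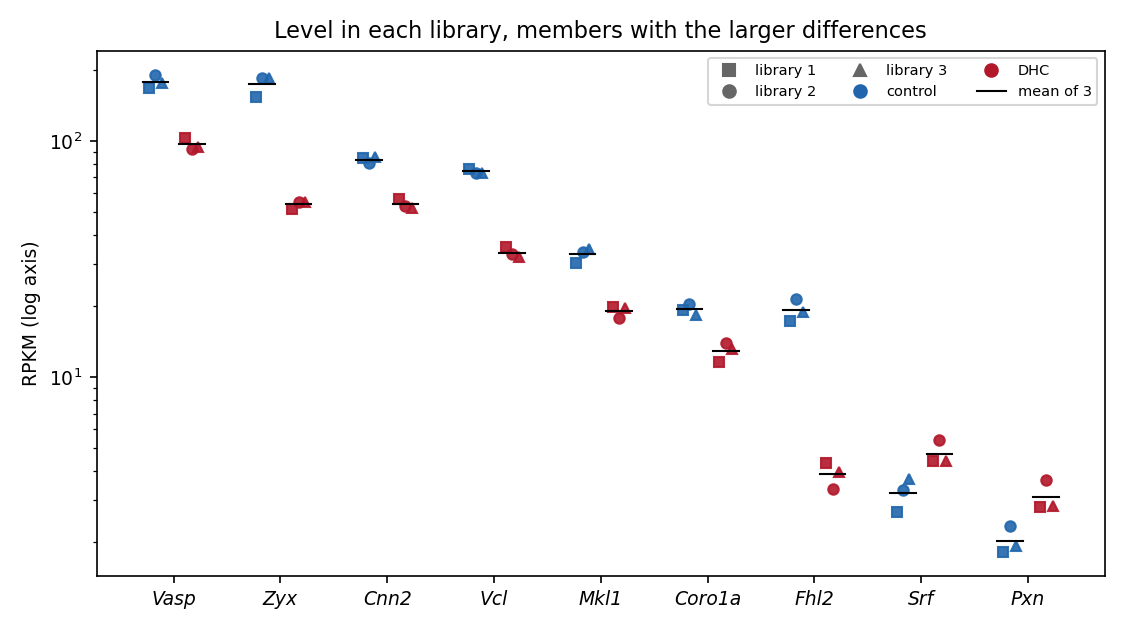
Level of the called genes with a difference of at least 0.4 in either direction (vertical axis, RPKM on a log axis), 1 point per library, blue for control and red for DHC, with a black bar at the mean of 3. For Zyx the controls lie at 154 to 185 RPKM and the DHC libraries at 51.4 to 55.0 RPKM; Srf and Pxn are the only genes shown whose DHC points lie above the controls.

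Differences of the actin filament genes were mostly small. Of 25 tested, 8 fell (Cnn2, Coro1a, Ezr, Tpm1, Arpc2, Tagln2, Flna and Msn), 1 rose (Cfl1) and 16 were not called. That is 32% lower and 4% higher, against 16.1% and 18.4% of all genes tested, in a list chosen with the contrast known. The actin filament genes took 1.64%, 1.75% and 1.79% of all assigned reads in the controls and 1.54%, 1.66% and 1.70% with DHC, ranges that overlapped.

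The actin monomer genes themselves were not called. Actb, beta-actin, was at 879.5, 974 and 1013 RPKM in the controls and 934, 1030 and 1090 RPKM with DHC. The groups overlapped, the difference was 0.09 with a 95% interval of -0.08 to 0.26, and the adjusted p was 0.369. Actg1, gamma-actin, averaged 442.4 ± 38.7 and 435.4 ± 25.8 RPKM (adjusted p = 0.849). Exons of Actg1 share 83 of 1128 bases with AABR07030921.1 on the same strand, a gene at 504.2 and 504.4 RPKM. The 2 actin genes are near-identical in coding sequence, and their separate levels are uncertain because the handling of reads that match both is not given in the sources used here. Profilin gene Pfn1, whose product loads monomers onto filaments, was at 240.6 ± 13.9 and 231.5 ± 23.4 RPKM (adjusted p = 0.604). Cfl1, encoding cofilin, which severs filaments, lies on chromosome 1 at 220869805 to 220873337. It was at 487, 525 and 533 RPKM in the controls and 568, 657 and 633 RPKM with DHC. Its mean rose from 515.2 ± 24.8 to 619.4 ± 46.0 RPKM (difference 0.26 ± 0.06; limma adjusted p = 0.0169). That call was lost with trimmed-mean scaling (0.0627) and without DHC library 2 (0.0665) or DHC library 3 (0.0551). Cofilin transcript per beta-actin transcript went from 0.540 ± 0.0137 to 0.609 ± 0.0288.

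Of the genes that start and cap filaments, Arpc2, encoding an Arp2/3 subunit, fell from 131.3 ± 5.60 to 109.6 ± 2.80 RPKM (difference -0.26 ± 0.05; limma adjusted p = 0.00501). Its partners Actr2 (181.0 and 183.4 RPKM), Actr3 (121.9 and 127.4 RPKM) and Arpc5 (103.9 and 97.2 RPKM) were not called. Actr3 per Arpc2 therefore went from 0.930 ± 0.0378 to 1.16 ± 0.0519. Exons of Arpc5 share 115 of 1807 bases with Rn60_13_0702.4 on the same strand, a gene at 126.1 and 119.1 RPKM. Wasf2, the WAVE activator of Arp2/3, was at 51.7 ± 1.5 and 46.8 ± 1.6 RPKM with no overlap, just outside the threshold (adjusted p = 0.0548). It passed with trimmed-mean scaling (0.0120) and without DHC library 1 (0.0430). Was, the blood cell activator of Arp2/3, was at 55.7 and 54.3 RPKM (adjusted p = 0.722), and the capping genes Capza1 (54.1 and 56.6 RPKM) and Capzb (60.7 and 61.3 RPKM) were likewise not called. Coro1a, a coronin of blood cells that acts on Arp2/3 and cofilin, lies on chromosome 1 at 198123884 to 198128857 on the minus strand. It was at 19.1, 20.4 and 18.4 RPKM in the controls and 11.6, 13.9 and 13.2 RPKM with DHC. Its mean fell from 19.3 ± 1.03 to 12.9 ± 1.21 RPKM (difference -0.55 ± 0.08; limma adjusted p = 0.00181).

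Among the members that decorate or crosslink filaments, Cnn2, Tagln2 and Flna fell, against 16.1% lower of all genes tested. Lcp1 was not called, and neither was the alpha-actinin gene Actn4 of the adhesion group. Cnn2, on chromosome 7 at 12782556 to 12787752, encodes a calponin that stabilises filaments. It was at 84.2, 80.3 and 85.4 RPKM in the controls and 56.7, 52.7 and 51.8 RPKM with DHC. Its mean fell 1.55-fold, from 83.3 ± 2.68 to 53.8 ± 2.62 RPKM (difference -0.62 ± 0.05; limma adjusted p = 0.00014). Its relative Tagln2, a transgelin, fell from 246.6 ± 3.81 to 208.3 ± 5.92 RPKM (adjusted p = 0.00325). Flna, encoding the crosslinker filamin A, fell from 107.8 ± 8.63 to 91.2 ± 5.49 RPKM (adjusted p = 0.0357). That call was lost without control library 2 (0.0946) or 3 (0.103), without DHC library 1 (0.0895) or 2 (0.0841), and without the filter on low values (0.0786). The bundling gene Lcp1, encoding L-plastin, was at 46.6 ± 2.54 and 51.2 ± 3.0 RPKM (adjusted p = 0.137).

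The tropomyosins, which coat filaments, were split. Tpm4 had the highest level of all members, at 1256, 1287 and 1316 RPKM in the controls and 1058, 1149 and 1220 RPKM with DHC. Its groups did not overlap, but the difference of -0.17 stood just outside the threshold (limma adjusted p = 0.0513). It passed without DHC library 3 (0.0301), with trimmed-mean scaling (0.0225) and with limma-voom (0.0112). Tpm1, at a far lower level, fell from 28.4 ± 1.06 to 22.2 ± 0.841 RPKM (adjusted p = 0.00304). Tpm3 was at 630, 707 and 738 RPKM in control libraries 1 to 3 and at 618, 705 and 738 RPKM in DHC libraries 1 to 3. These values nearly matched between the groups but not within them (limma adjusted p = 0.936). The non-muscle myosin heavy chain gene Myh9 was at 647, 686 and 704 RPKM in the controls and 621, 640.1 and 674 RPKM with DHC, which overlapped (adjusted p = 0.286). The light chain gene Myl6 was at 541, 583 and 583 RPKM and at 569, 614 and 611 RPKM (adjusted p = 0.307), and Myl12a at 84.1 ± 7.30 and 77.1 ± 1.06 RPKM (adjusted p = 0.181).

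Genes of the ERM proteins, which tie filaments to the plasma membrane, fell in both members listed. Ezr, encoding ezrin, fell from 383.6 ± 29.4 to 293.9 ± 18.7 RPKM (difference -0.38 ± 0.07; limma adjusted p = 0.00529). Msn, encoding moesin, was at 291, 304 and 309 RPKM in the controls and 255, 273 and 276 RPKM with DHC. The groups did not overlap and the mean fell from 301.3 ± 9.62 to 267.9 ± 11.4 RPKM (adjusted p = 0.0286). That call was lost when control library 2 (0.0890) or 3 (0.0901), or DHC library 1 (0.0645) or 2 (0.0670), was left out, and without the filter on low values (0.0513).

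**Figure D3:**
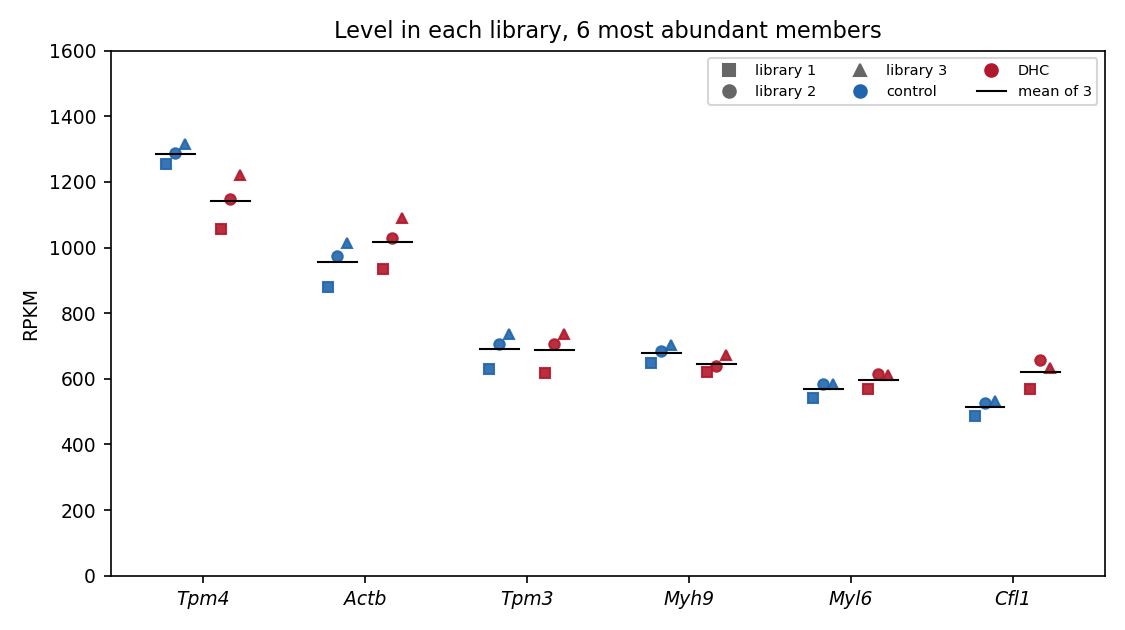
Level of the 6 members with the highest levels (vertical axis, RPKM), 1 point per library with the library number as its shape, blue for control and red for DHC, and a black bar at the mean of 3. Tpm4 is the highest, at 1256 to 1316 RPKM in controls and 1058 to 1220 RPKM with DHC, and Cfl1 is the only 1 of the 6 past the threshold.

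The abundant members shared a pattern between libraries. Control library 1 was the lowest control and DHC library 1 the lowest DHC library for 19 of the 38 members, and for 11 of the 11 with a mean above 200 RPKM, a level set after the values were seen. The same held for 17.4% of all genes tested and for 194 of the 481 genes above 200 RPKM (40.3%). Its part in the results was not tested, and without both libraries numbered 1 the calls among the members were 1 higher (Cfl1) and 15 lower. The spread within a group was otherwise small, with a median coefficient of variation of 4.71% over the members in controls and 5.58% with DHC.

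**Figure D4:**
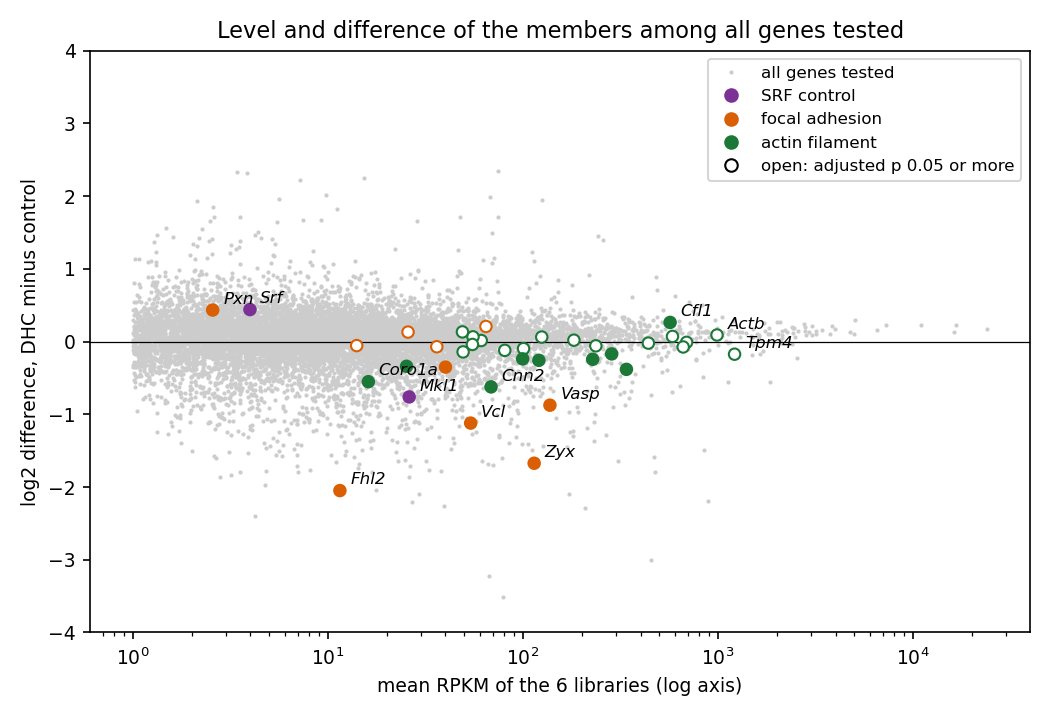
Difference of each tested gene (vertical axis, DHC minus control on the log2(RPKM + 1) scale) against its mean level over the 6 libraries (horizontal axis, RPKM on a log axis), with members coloured by group and other genes in grey. Filled members passed the threshold. The abundant members Actb and Tpm4 lie near 0 and were not called. Among the other abundant members, Ezr (-0.38), Tagln2 (-0.24), Msn (-0.17) and Cfl1 (0.26) were called. Of the members, Fhl2, Zyx and Vcl lie farthest below 0.

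Gene families were grouped after the values were seen, and their make-up is given as a description, with no test. Shares here are percent of the summed RPKM of the genes listed for a family that had a row, which need not be all its members. Some families were nearly all 1 gene in both groups: Actn4 made up 99.83% and 99.81% of the alpha-actinins, Tagln2 99.83% and 99.63% of the transgelins, and Tln1 95.6% and 94.6% of the talins. The FAK family holds Ptk2 and Ptk2b, its relative in blood cells, and their summed level went from 98.9 ± 1.35 to 60.8 ± 1.5 RPKM as Ptk2b fell from 74.4 to 33.9 RPKM. Ptk2 thus went from 24.8% ± 0.908 to 44.4% ± 3.63 of the family without itself being called. The zyxin family sum went from 186.6 ± 16.4 to 66.4 ± 1.85 RPKM, and Zyx from 93.3% to 81.0% of it. Among kindlins, Fermt2 fell from 71.5 to 44.3 RPKM, and the share of Fermt3 went from 34.1% to 44.3%. Among the ERM genes the sum went from 964.3 ± 29.0 to 760.0 ± 15.7 RPKM, with Rdx, encoding radixin, falling from 279.4 to 198.1 RPKM, and Msn went from 31.3% to 35.2% of it. Among regulatory myosin light chains the sum was 118.5 ± 8.10 and 123.3 ± 4.23 RPKM, while Myl12a went from 70.9% to 62.6% and Myl12b, which rose, from 29.1% to 37.4%. Calponin Cnn2 went from 83.8% to 73.9% of its family. Reads shared by near-identical relatives could be split between them in ways the sources used here do not give.

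The wider pathway was taken from 5 lists of 135 further genes, of which 101 were tested, and 11 were higher and 33 lower. That is 10.9% and 32.7%, against 18.4% and 16.1% of all genes tested, in lists chosen with earlier results known. With trimmed-mean scaling the split in these lists was 5 and 35. The genes of 4 of the lists are described. Other adhesion genes gave 1 higher and 9 lower of 22. Those with the lowest p were the adaptor gene Nedd9, which fell from 34.9 to 15.3 RPKM (adjusted p = 1.93e-05), Ptk2b (3.15e-05), Fermt2 (4.77e-05) and the kinase gene Src, which fell from 12.4 to 5.29 RPKM (4.79e-05). The integrin adaptor gene Skap2 rose from 116.0 to 149.4 RPKM (0.00234).

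SRF partners and targets gave no gene higher and 2 lower of 8 (25%), against 18.4% and 16.1% of all genes tested. At an unadjusted p below 0.05, 1 was higher and 4 lower, against 2716 and 2118 of the 10667 genes tested. By limma-voom 1 was called higher and 4 lower, against 2305 and 1938 of all genes tested. The 2 that fell were Elk3, a ternary complex factor, from 17.2 ± 2.17 to 4.81 ± 0.728 RPKM (adjusted p = 6.86e-05), and Fhl3, a relative of Fhl2, from 6.08 to 2.51 RPKM (0.00191). Classical muscle targets such as Acta1, Acta2 and Cnn1 did not reach the filter, with group means of at most 0.128 RPKM.

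Nucleation genes gave 3 higher and 3 lower of 15, 20% each way and near the 18.4% and 16.1% of all genes tested. With trimmed-mean scaling none of the 15 was higher and 3 were lower. Those higher were Nckap1, from 23.7 to 27.6 RPKM (adjusted p = 0.0299), Wasl, from 8.10 to 10.0 RPKM (0.0318), and Cyfip1, from 3.04 to 3.96 RPKM (0.0418). None of these 3 calls held when control library 2 or 3 was left out, with adjusted p of 0.0881 to 0.1215. Those lower were Cyfip2, from 15.2 to 11.4 RPKM (0.00219), Abi1, from 24.4 to 18.2 RPKM (0.00971), and Hcls1, from 255.8 to 212.6 RPKM (0.0147, and 0.0501 without control library 2). Of the 9 Arp2/3 subunit genes tested, only Arpc2 was called. Other filament genes gave 7 higher and 5 lower of 27 (25.9% and 18.5%), against 18.4% and 16.1% of all genes tested. With trimmed-mean scaling the filament genes gave 4 and 5. They included Add3, encoding an adducin, which rose from 35.1 to 47.1 RPKM (0.001), Myl12b (0.0068), Twf2 (0.00784) and Cotl1 (0.0148, and 0.0556 without DHC library 2). Those that fell with the lowest p were Myo1g, from 32.6 to 21.9 RPKM (0.000667), Rdx (0.000801), Cap1, from 346.3 to 281.0 RPKM (0.00118), and Flii, from 60.9 to 49.4 RPKM (0.00702).

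**Figure D5:**
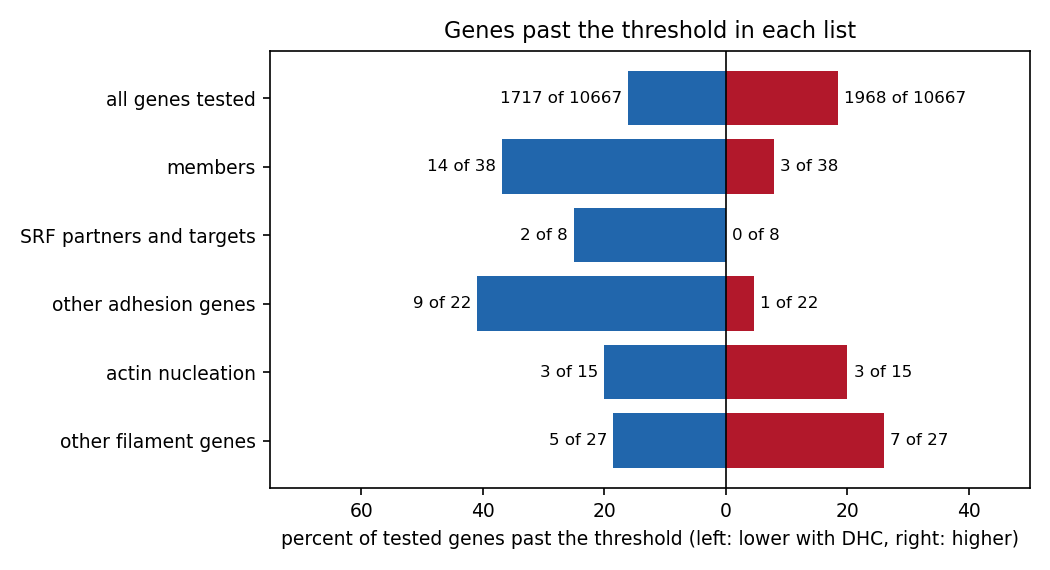
Percent of tested genes past the threshold among all genes, the members and 4 wider lists (horizontal axis), lower with DHC to the left in blue and higher to the right in red, with the counts beside each bar. Among all genes tested 18.4% were higher and 16.1% lower; other adhesion genes have 1 of 22 higher and 9 of 22 lower.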

How the data were processed

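Per the labels, total RNA was taken from RBL-2H3 cells with Trizol for Illumina libraries, and the titles put 3 libraries in each of 2 groups. Per the submitters' processing notes, the authors used the build Rnor_6.0 with edgeR 3.12.1, Subread 1.5.1, featureCounts and Trimmomatic 0.36. For the aligner, annotation release and strand setting, nothing is given in the sources used here. The deposited table holds 1 RPKM value per gene and library. The unit of the deposited RPKM values was settled from the numbers themselves: times exon length, 100% were whole multiples of 1 read's worth within 0.01 read. Read numbers were recovered from this.

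Differences were fitted with limma 3.58.1 (trended variance, R 4.3.3) on log2(RPKM + 1) for the 10667 genes averaging 1 RPKM or more, with a term for group alone, and p-values were adjusted over all of them by Benjamini-Hochberg. The method was tested on simulated data. The member genes and wider lists were chosen with earlier results of these data known. Values are given in every library for the SRF control genes, for members past the threshold with a difference of at least 0.4, and for the 6 highest; of each wider list, up to 4 genes per direction with the lowest p and no overlap were named. Other library values were added where a call was near the threshold. Alternatives were other pseudocounts, filters, scalings, limma-voom on recovered reads, a robust variance, a replicate block and leaving out each library. Promoter windows are from RefSeq (GRCr8), with Mkl1 and Mkl2 matched as Mrtfa and Mrtfb. Of the 5 wider lists, 1 enters the totals but is not reported here by itself.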

Additional observations from a re-analysis of the deposited data

How the results depend on the processing

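Among the member results, the 14 lower calls ranged from 12 to 15 when 1 library was left out, and the higher calls from 0 to 4. Over all genes, chi-square per degree of freedom between libraries of a group was 4.43 to 15.0, where counting error alone gives about 1. Over all genes, 1968 higher calls became 1285 with trimmed-mean scaling and 1201 to 1746 without 1 library, and all calls 2476 to 3309. An adjusted p below 0.01 left 1949 of 3685 genes, 873 higher and 1076 lower, and no higher member. The 3 higher members became 1 without the filter, 1 without both libraries numbered 1 and 6 with a replicate block. With a filter of 5 RPKM, Srf and Pxn were too low to be tested, which left 1 higher member. The 11 higher genes of the wider lists became 7 without the filter, 5 with median-of-ratios and 5 with trimmed-mean scaling, 4 at an adjusted p below 0.01, and 4 to 10 without 1 library. Apart from genes that a filter left out, the cause of these changes was not tested.

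The replicate block called 22 members, 6 higher and 16 lower, and 4333 genes. The 5 members it added were Actb (adjusted p = 0.0238), Actn4 (0.0136), Lcp1 (0.0302), Tpm4 (0.0108) and Wasf2 (0.0249). Same-numbered libraries deviated with correlations of 0.228, -0.0495 and 0.0828, and differently numbered ones with -0.183 to 0.106. The main fit had no block because no label ties equal numbers together. These values do not settle whether the numbers pair the samples.

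Uncalled differences near 0 changed sign. With median-of-ratios scaling Lasp1 was -0.05, Capzb -0.041 and Actr2 -0.037. With trimmed-mean scaling Lasp1 was -0.06, Capzb -0.051, Capza1 -0.00018, Actr2 -0.047 and Actr3 -0.0036. Without both libraries numbered 1 Was was 0.012. Leaving out 1 library, Parvg ranged from -0.11 to 0.0061, Lasp1 from -0.032 to 0.033, Actg1 from -0.091 to 0.033, Pfn1 from -0.11 to 0.027, Capzb from -0.0074 to 0.039, Actr2 from -0.0091 to 0.053, Was from -0.098 to 0.041 and Tpm3 from -0.076 to 0.064.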
